A study of Mus musculus with 10 samples.

Results

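The genes described here are 30 genes of mitosis, the division of the duplicated chromosomes between 2 daughter cells. They were taken by name from the deposited count table, which lists 78317 genes, and each name had 1 gene identifier. The list holds mitotic cyclins and Cdk1, the mitotic kinases and their partners, proteins of the kinetochore and its checkpoint, spindle and cytokinesis proteins, 2 proteins of the chromosomes and 2 of mitotic exit. RNA came from mouse embryonic fibroblasts of wildtype genotype, a line immortalized with T antigen, which is a viral protein that binds p53 and the retinoblastoma family. Both groups came from cultures in complete medium at 37 °C with 10% CO2. They were then kept for 24 h at 10% CO2, the level of the routine culture, or at 2% CO2. There were 5 libraries per level, replicates 1 to 3 in batch 1 and replicates 4 and 5 in batch 2, and the labels do not state what a batch was. Neither do they state whether the line is 1 clone or whether replicates were separate cultures, which means that the p-values reflect only how far these libraries vary, possibly for technical reasons.

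Entry into mitosis is driven by Cdk1, a kinase that is active when bound to cyclin A or cyclin B. Polo-like and Aurora kinases then build the spindle, the kinetochores attach chromosomes to it, and a checkpoint holds back the anaphase-promoting complex until all are attached. Transcripts of these genes rise together in G2 and M phase. Their promoters are known for CCAAT boxes, bound by NF-Y, and for the cell cycle genes homology region (CHR), bound by the MuvB complex, which acts with the retinoblastoma relatives p107 and p130 as a repressor and with B-Myb and FoxM1 as an activator. In bulk RNA, fewer dividing cells and less RNA per dividing cell cannot be told apart.

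Depth was between 178676 and 12354538 counts per library. The 2% CO2 libraries were the shallower ones in batch 1 and the deeper ones in batch 2. In the shallowest, 2% CO2 replicate 2, each count is worth 5.597 CPM (counts per 1000000 of the library total) and 13 of the 30 genes had fewer than 10 counts, so its values carry a wide counting error. Fractional counts, which reads shared with related sequences can give, occurred in at least 1 library for 25 of the 30 genes and in all 10 libraries for Ube2c, whose values are uncertain. Of 10 fibroblast markers 7 averaged at least 10 CPM, whereas Pdgfra, Dcn and Lum were too low to test. Epithelial, macrophage and endothelial markers summed to at most 30.8, 8.39 and 15.6 CPM in any library, and Adgre1 was at 0 in all. The fibroblast markers summed to at least 8289 CPM in each library at 10% CO2 and to between 4615 and 8605 CPM at 2% CO2. Of the 7 tested, 4 were called lower, where 6.73% of all genes tested were. Another 1 had a positive log2 fold change, 0.82, with an edgeR unadjusted p under 0.05, and was not called. Kdr, the 1 endothelial marker tested of 5, rose by 0.98 on the log2 scale. Of those 5, 4 averaged under 1 CPM. The 2 macrophage markers tested had log2 fold changes of -0.42 and 0.94, and 0 were called. The part of these markers in the results below was not tested.

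After 24 h at 2% CO2, most mitosis genes stood close to their level at 10% CO2. Of the 30 genes, all of which passed the filter on low counts, 2 fell, 0 rose and 28 did not pass the test (edgeR's quasi-likelihood test, Benjamini-Hochberg adjusted p under 0.05 over 13198 genes, with batch in the model). Those that fell were Ccnb2 and Plk1. Over all genes tested, 12% were called, 5.3% higher and 6.73% lower, so the share of mitosis genes called, 6.67%, was no larger than the background. At an unadjusted p under 0.05 there were 5 lower and 2 higher genes. DESeq2 and limma-voom each called the same 2 lower and also Birc5 as higher. Shares of all genes at that unadjusted p, or by these tools, are not given. Such counts, here and below, therefore have no background beside them.

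The sizes were small. The 95% interval of the log2 fold change (2% minus 10% CO2), taken from the test's F statistic, lay within a 2-fold change either way for all 30 genes and within a 1.5-fold change for 27. Those whose interval reached past 1.5-fold were Ccnb2, Plk1 and Bub1b. The log2 fold changes ran from -0.57 to 0.28 with a median of -0.14, against a median of 0.00 over all genes tested, and 22 of the 30 were negative. When library totals replaced the TMM factors, the median was -0.06, with 18 negative, and the median over all genes was 0.07. The CPM given below are scaled to the library total and the log2 fold changes with TMM factors, so these scales differ slightly.

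**Figure D1:**
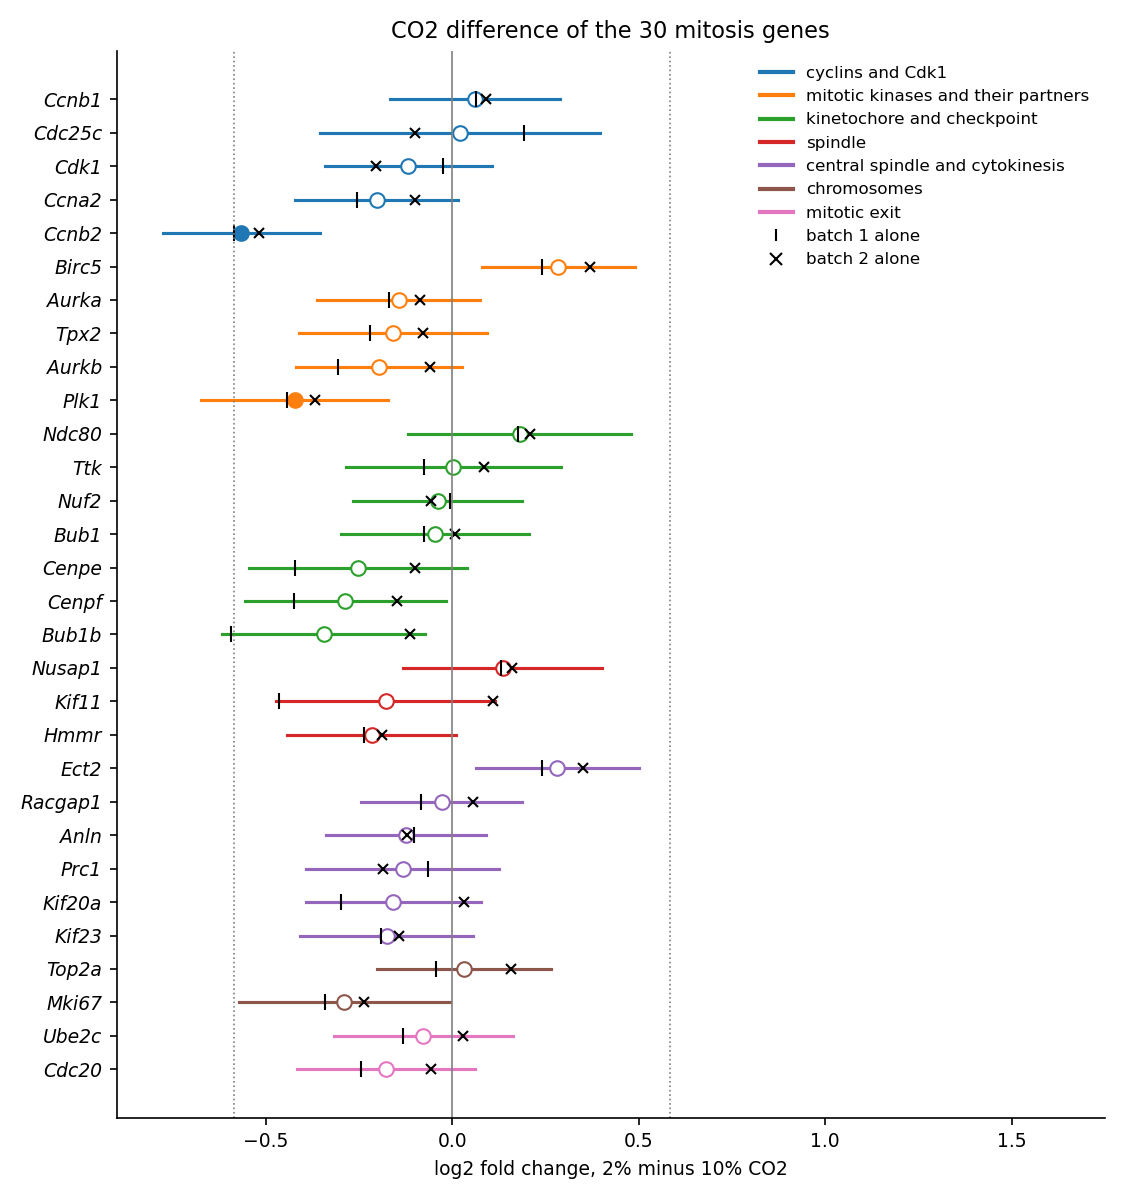
Log2 fold change between 2% and 10% CO2 for each of the 30 genes, by role (colour), with 95% intervals as lines; filled circles passed the test, open circles did not, and dotted lines mark 1.5-fold. Filled circles are Ccnb2 at -0.57 and Plk1 at -0.42, while bars and crosses give batch 1 and batch 2 alone.

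Among the cyclins and Cdk1, Ccnb2 fell and the other 4 genes did not pass. Ccnb2 (cyclin B2, a partner of Cdk1 known for its place at the Golgi; ENSMUSG00000032218) was at 79.1, 87.4, 89.5, 68.6 and 77.3 CPM in replicates 1 to 5 at 10% CO2, and at 57.2, 50.4, 61.2, 52.6 and 54.1 CPM at 2% CO2. Every library at 2% CO2 lay below every library at 10% CO2. Its mean was 80.4 ± 8.39 CPM with the routine CO2 and 55.1 ± 4.22 CPM with less (SD, n = 5 each). The fitted difference was -0.57 ± 0.10 on the log2 scale (SE; edgeR adjusted p = 0.00123), which is -32.4%. In the fits that left out 1 library the edgeR adjusted p was between 0.0017 and 0.00536. Without the 3 shallowest libraries the log2 fold change was -0.50 (edgeR adjusted p = 0.0159).

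Ccnb1 (cyclin B1, the B cyclin needed for mitosis in mouse cells; ENSMUSG00000041431) showed no such difference. It was at 135, 184, 149, 169 and 199 CPM at 10% CO2 and at 158, 153.5, 189, 202 and 213 CPM at 2% CO2, and the levels overlapped widely. Its log2 fold change was 0.06 (95% interval -0.17 to 0.29), so a fall as large as that of Ccnb2 lay outside its interval. Ccnb1 had fractional counts in 9 libraries, which makes its value less certain. The CPM ratio of Ccnb2 to Ccnb1 was 0.587, 0.476, 0.599, 0.406 and 0.388 at 10% CO2 and 0.361, 0.328, 0.324, 0.261 and 0.254 at 2% CO2. It did not overlap between the levels, within a batch or over both, although the batches also differed. The ratio is given as a description, chosen after the values were seen, and since gene length was not taken into account it is no ratio of molecules.

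Cdk1 (ENSMUSG00000019942), the kinase itself, was at 341, 348, 343, 254 and 320.5 CPM at 10% CO2 and at 374, 341, 318, 252 and 277 CPM at 2% CO2. The levels overlapped, and its log2 fold change was -0.12 (95% interval -0.34 to 0.11). Ccna2 (cyclin A2, which acts in S phase and early mitosis) was at -0.20 ± 0.10 on the log2 scale (SE; edgeR adjusted p = 0.231). Cdc25c (a phosphatase that activates Cdk1) was the lowest of the 30 in CPM, with 14.6 to 18.4 CPM at 10% CO2. At 2% CO2 it had 0 counts in replicate 2, where 3 counts would equal 16.8 CPM, and 16.1 to 21.4 CPM in the other 4 libraries.

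**Figure D2:**
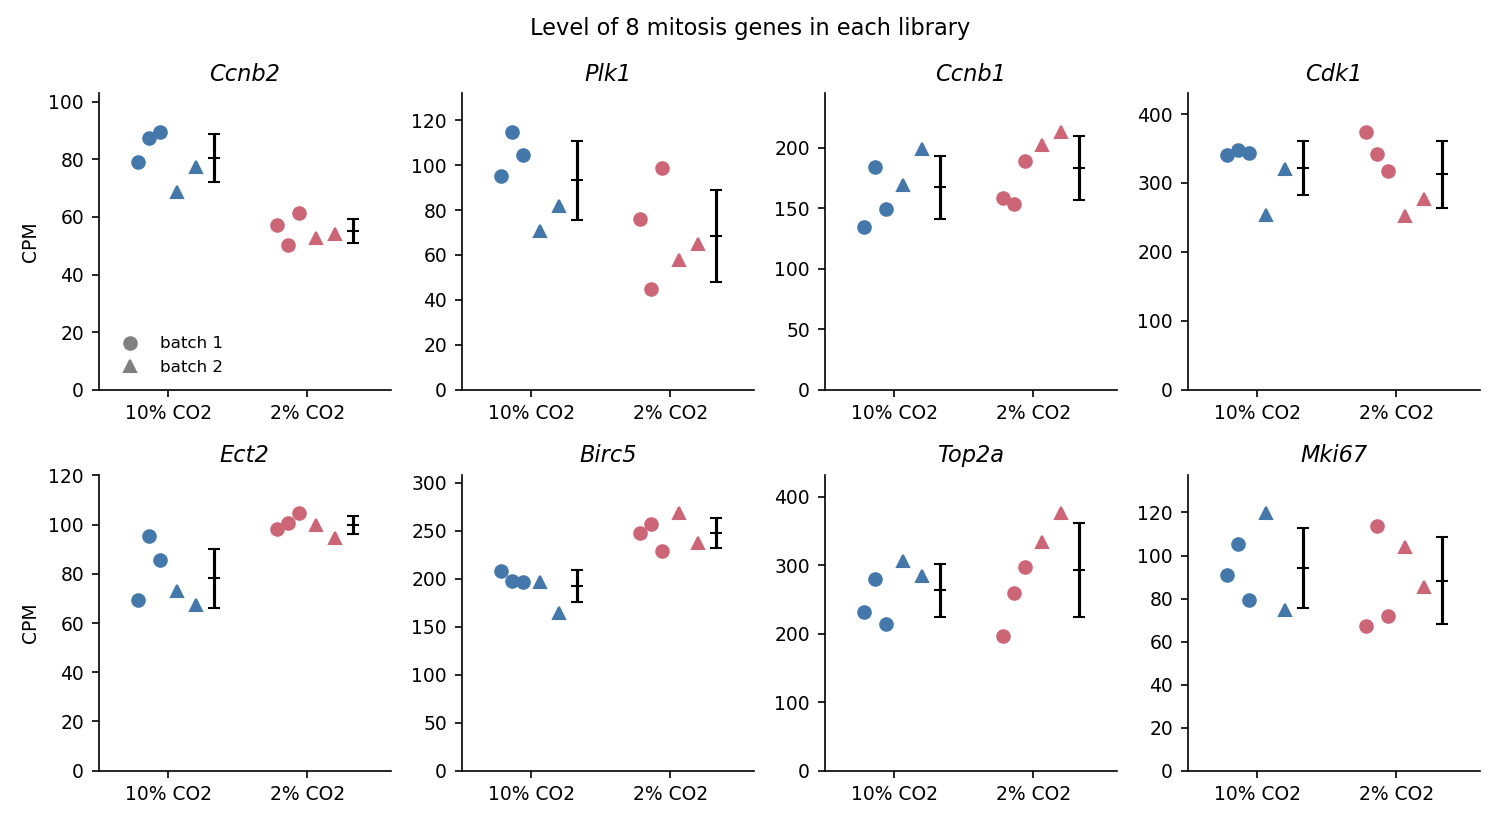
CPM of 8 mitosis genes in each library at 10% CO2 (blue) and 2% CO2 (red), with circles for batch 1, triangles for batch 2, and the mean and SD over 5 libraries in black. The levels of Ccnb2 and Birc5 do not overlap, those of the other 6 do.

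Among the mitotic kinases and their partners, Plk1 fell and 4 genes did not pass. Plk1 (polo-like kinase 1, which acts from mitotic entry to cytokinesis; ENSMUSG00000030867) was at 95.2, 115, 104.5, 70.6 and 81.8 CPM at 10% CO2 and at 75.9, 44.8, 98.7, 57.8 and 65.1 CPM at 2% CO2. The levels overlapped over all libraries and within batch 1 but not within batch 2, and the value of 44.8 CPM rests on 8 counts. By the fit it fell by 0.42 on the log2 scale, with an SE of 0.12 (edgeR adjusted p = 0.0267). The call did not hold without replicate 3 or 4 at 10% CO2 (edgeR adjusted p = 0.0535 and 0.0515) or replicate 1 or 4 at 2% CO2 (0.0545 and 0.0781), and the range over all 19 alternatives was 0.00312 to 0.184. It was also lost without the 3 shallowest libraries (0.0688) and with scaling to the library total (0.0672).

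Birc5 (survivin, which targets Aurora B to the centromere; ENSMUSG00000017716) went the other way without passing the test. It was at 208, 197, 197, 197 and 164 CPM at 10% CO2 and at 247, 257, 229, 268 and 237 CPM at 2% CO2. No library at 2% CO2 was as low as any at 10% CO2, yet the log2 fold change of 0.28 ± 0.10 (SE) had an edgeR adjusted p of 0.0650. Among the 30 genes only Birc5 and Ccnb2 had CPM that did not overlap between the levels, which is 6.67% of them, against 5.18% of all genes tested (3.19% higher and 1.99% lower at 2% CO2). It passed under a filter of 10 CPM (edgeR adjusted p = 0.0417), with library totals as the scale (0.0212), by limma-voom (0.0434) and by DESeq2 (0.00934), that is in 4 of 19 alternatives in all (range 0.00934 to 0.247). Aurka and Aurkb (the Aurora kinases of the spindle poles and the centromere) and Tpx2 (the activator of Aurora A) had log2 fold changes of -0.14, -0.20 and -0.16, all with 95% intervals that held 0.

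The promoters of 5 of these genes are shown because they cover both genes that fell (Ccnb2 and Plk1), the paralog of the first that did not (Ccnb1), and the genes with the highest positive log2 fold changes (Birc5 and Ect2). Each covers the start of the gene and lies mostly before it, from RefSeq on build GRCm38.p6, while the counts were made on GRCm39, so the coordinates hold for GRCm38.p6 only. Capitals mark the motifs searched on both strands, CCAAT (the NF-Y box) and TTTGAA or TTTAAA (cores of the CHR).
Ccnb2: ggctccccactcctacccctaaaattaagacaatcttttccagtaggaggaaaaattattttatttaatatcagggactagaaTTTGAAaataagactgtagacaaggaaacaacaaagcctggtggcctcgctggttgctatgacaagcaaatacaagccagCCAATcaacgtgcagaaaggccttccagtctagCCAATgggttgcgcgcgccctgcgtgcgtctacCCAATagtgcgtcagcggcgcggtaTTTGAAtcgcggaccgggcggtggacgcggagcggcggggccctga
Plk1: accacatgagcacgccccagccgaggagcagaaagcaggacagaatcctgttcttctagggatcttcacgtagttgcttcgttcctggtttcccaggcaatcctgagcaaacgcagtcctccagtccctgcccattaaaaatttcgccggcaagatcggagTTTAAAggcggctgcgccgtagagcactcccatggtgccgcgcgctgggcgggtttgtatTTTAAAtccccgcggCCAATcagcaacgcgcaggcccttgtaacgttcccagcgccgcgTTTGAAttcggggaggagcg
Ccnb1: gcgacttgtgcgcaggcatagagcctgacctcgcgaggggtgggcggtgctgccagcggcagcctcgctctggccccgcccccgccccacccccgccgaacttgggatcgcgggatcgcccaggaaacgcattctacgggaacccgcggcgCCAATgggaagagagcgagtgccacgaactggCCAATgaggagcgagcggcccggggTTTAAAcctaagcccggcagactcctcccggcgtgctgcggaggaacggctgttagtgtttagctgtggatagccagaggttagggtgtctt
Birc5: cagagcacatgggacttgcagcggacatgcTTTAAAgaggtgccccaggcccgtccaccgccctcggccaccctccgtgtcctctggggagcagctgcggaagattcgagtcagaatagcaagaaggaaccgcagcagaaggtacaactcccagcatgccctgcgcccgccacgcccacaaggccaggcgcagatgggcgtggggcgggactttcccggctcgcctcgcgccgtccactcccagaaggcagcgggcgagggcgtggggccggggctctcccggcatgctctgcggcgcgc
Ect2: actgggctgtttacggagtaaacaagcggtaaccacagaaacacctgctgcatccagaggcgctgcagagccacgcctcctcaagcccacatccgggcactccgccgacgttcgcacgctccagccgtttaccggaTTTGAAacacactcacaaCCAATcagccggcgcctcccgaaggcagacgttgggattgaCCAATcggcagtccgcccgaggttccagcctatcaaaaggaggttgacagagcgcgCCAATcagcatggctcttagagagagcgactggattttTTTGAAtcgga
The Ccnb2 window, chr9:70421505-70421804 on the minus strand, holds 3 CCAAT boxes that begin 87, 54 and 21 bases before the start and 2 TTTGAA, of which 1 begins at base 5 after it. In the Plk1 window, chr7:122159185-122159484 on the plus strand, there are 1 CCAAT, 1 TTTGAA and 2 TTTAAA, and in the Ccnb1 window, chr13:100786437-100786736 on the minus strand, 2 CCAAT and 1 TTTAAA. The Birc5 window, chr11:117848987-117849286 on the plus strand, holds 1 TTTAAA and none of the other letters searched. The Ect2 window, chr3:27153829-27154128 on the minus strand, holds 3 CCAAT and 2 TTTGAA. Whether these motifs have a part in the CO2 differences was not tested.

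Promoter windows were found for 25 of the 30 genes (1 window per gene, the first listed). Of these, 20 (80.0%) held a CCAAT, against 37.9% of 27025 windows of all genes, and 13 (52.0%) held at least 2, against 12.2%. TTTGAA was found in 19 (76.0%, against 18.1%) and TTTAAA in 7 (28.0%, against 13.2%). Both kinds together, a CCAAT with a TTTGAA or TTTAAA, stood in 19 of 25 (76.0%), against 10.9% of all windows, 39 of 121 windows of other mitosis genes (32.2%) and 5 of 31 windows of DNA replication genes (16.1%). The windows of Nuf2 and Nusap1 held none of these letters, and that of Bub1 held 2 CCAAT and no CHR core. A match is a description of the letters and does not show that a factor binds.

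**Figure D3:**
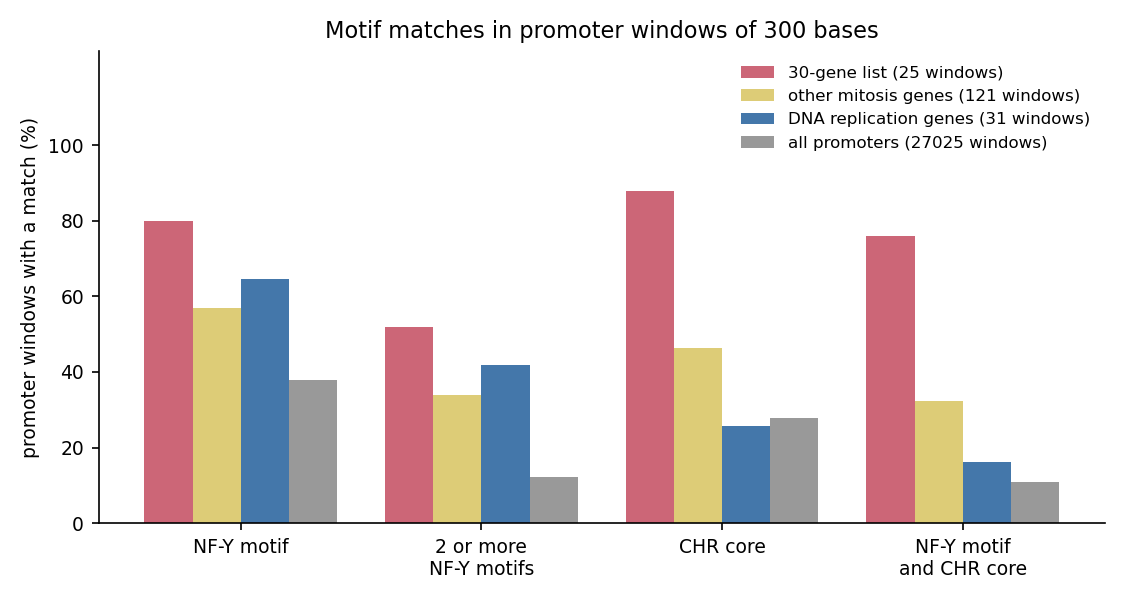
Percent of promoter windows of equal length with a match to the NF-Y motif or the CHR core, for the 30-gene list, other mitosis genes, DNA replication genes and all promoters. Both motifs together stand in 76.0% of the windows of the list and in 10.9% of all windows.

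The 7 genes of the kinetochore and its checkpoint did not pass (edgeR; 2 had an unadjusted p under 0.05, and DESeq2 and limma-voom called 0). Bub1b (BubR1, which holds back the anaphase-promoting complex) had the most negative difference of them, -0.34 ± 0.13 on the log2 scale (SE; edgeR adjusted p = 0.0914). It was at 45.2, 57.7, 50.1, 49.6 and 50.4 CPM at 10% CO2 and at 33.2, 22.4, 41.5, 45.7 and 53.0 CPM at 2% CO2. In batch 1 each 2% CO2 library was below each 10% CO2 library, with 4 counts in replicate 2, whereas in batch 2 the levels overlapped. Cenpf and Cenpe (a farnesylated kinetochore protein and a kinesin that moves chromosomes to the spindle equator) had log2 fold changes of -0.29 and -0.25. Bub1 and Ttk (Mps1), the kinases of the checkpoint, and Ndc80 and Nuf2, which bind microtubule ends, were between -0.05 and 0.18.

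The spindle genes Kif11 (Eg5, the motor that pushes the poles apart), Nusap1 and Hmmr (microtubule binding proteins) did not pass either, and 0 of them had an unadjusted p under 0.05. Hmmr, with the smallest adjusted p of these, was at 54.8, 64.2, 51.8, 67.9 and 52.7 CPM at 10% CO2 and at 47.7, 50.4, 51.8, 60.8 and 58.4 CPM at 2% CO2. The levels overlapped, and its log2 fold change was -0.22 (95% interval -0.44 to 0.01). Kif11 had log2 fold changes of -0.47 in batch 1 and 0.11 in batch 2.

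Of the 6 genes of the central spindle and cytokinesis none passed (edgeR; 1 with an unadjusted p under 0.05). That gene was Ect2, the exchange factor that activates RhoA at the division plane. It was at 69.5, 95.5, 85.5, 73.2 and 67.2 CPM at 10% CO2 and at 98.4, 101, 105, 100 and 94.7 CPM at 2% CO2. The levels overlapped only through 10% CO2 replicate 2, at 95.5 CPM, which lay above 2% CO2 replicate 5. The fitted difference was 0.28 ± 0.10 on the log2 scale (SE; edgeR adjusted p = 0.0866). It passed without 10% CO2 replicate 2 (0.0447), and over the 19 alternatives the adjusted p was between 0.0398 and 0.349. Racgap1 and Kif23, which form the centralspindlin complex that recruits Ect2, had log2 fold changes of -0.03 and -0.18. Prc1 (which bundles the central spindle), Kif20a (a kinesin of the midzone) and Anln (anillin, a scaffold of the contractile ring) were at -0.13, -0.16 and -0.12.

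Top2a and Mki67 are widely used as markers of dividing cells. Top2a (topoisomerase II alpha, which untangles sister chromatids) was at 232, 280.1, 214, 306.5 and 285 CPM at 10% CO2 and at 197, 260.2, 297, 334 and 376 CPM at 2% CO2, a log2 fold change of 0.03 (95% interval -0.20 to 0.27). Mki67 (Ki-67, which coats mitotic chromosomes) was at 91.1, 105, 79.5, 120 and 74.9 CPM at 10% CO2 and at 67.0, 114, 71.7, 104 and 85.6 CPM at 2% CO2. The levels of both genes overlapped. Fractional counts occurred in 9 libraries for Mki67 and in 7 for Top2a, which makes their values less certain. The test was not passed by Mki67, whose difference was -0.29 ± 0.13 on the log2 scale (SE; edgeR adjusted p = 0.1803), but it was without 10% CO2 replicate 5 (0.0432), with a range of 0.0432 to 0.587 over the alternatives.

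The genes of mitotic exit did not pass, and 0 of the 2 had an unadjusted p under 0.05. Cdc20, which activates the anaphase-promoting complex, was at 206, 261, 264, 316 and 347 CPM at 10% CO2 and at 221, 159.5, 227, 334 and 348 CPM at 2% CO2. The batches stood further apart than the CO2 levels. Its log2 fold change between the levels was -0.18 (95% interval -0.42 to 0.06). Ube2c, the ubiquitin-conjugating enzyme of that complex, had a log2 fold change of -0.08.

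The summed level of the 30 genes was 3119, 3783, 3326, 3503 and 3544 CPM at 10% CO2 and 3085, 3192, 3356, 3644 and 3819 CPM at 2% CO2. The means were 3455 ± 249 and 3419 ± 307 CPM (SD, n = 5 each), and the levels overlapped. Mitosis transcripts thus took about the same share of each library at both levels, between 3085 and 3819 CPM. Within batch 1 the mean sum was 3409 CPM at 10% CO2 and 3211 CPM at 2% CO2, and within batch 2 the order was turned, with 3523 and 3732 CPM. Divided by the TMM factors, the means were 3565 and 3312 over all libraries, 3487 and 3134 in batch 1, and 3682 and 3579 in batch 2. On that scale the mean was lower at 2% CO2 in both batches.

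**Figure D4:**
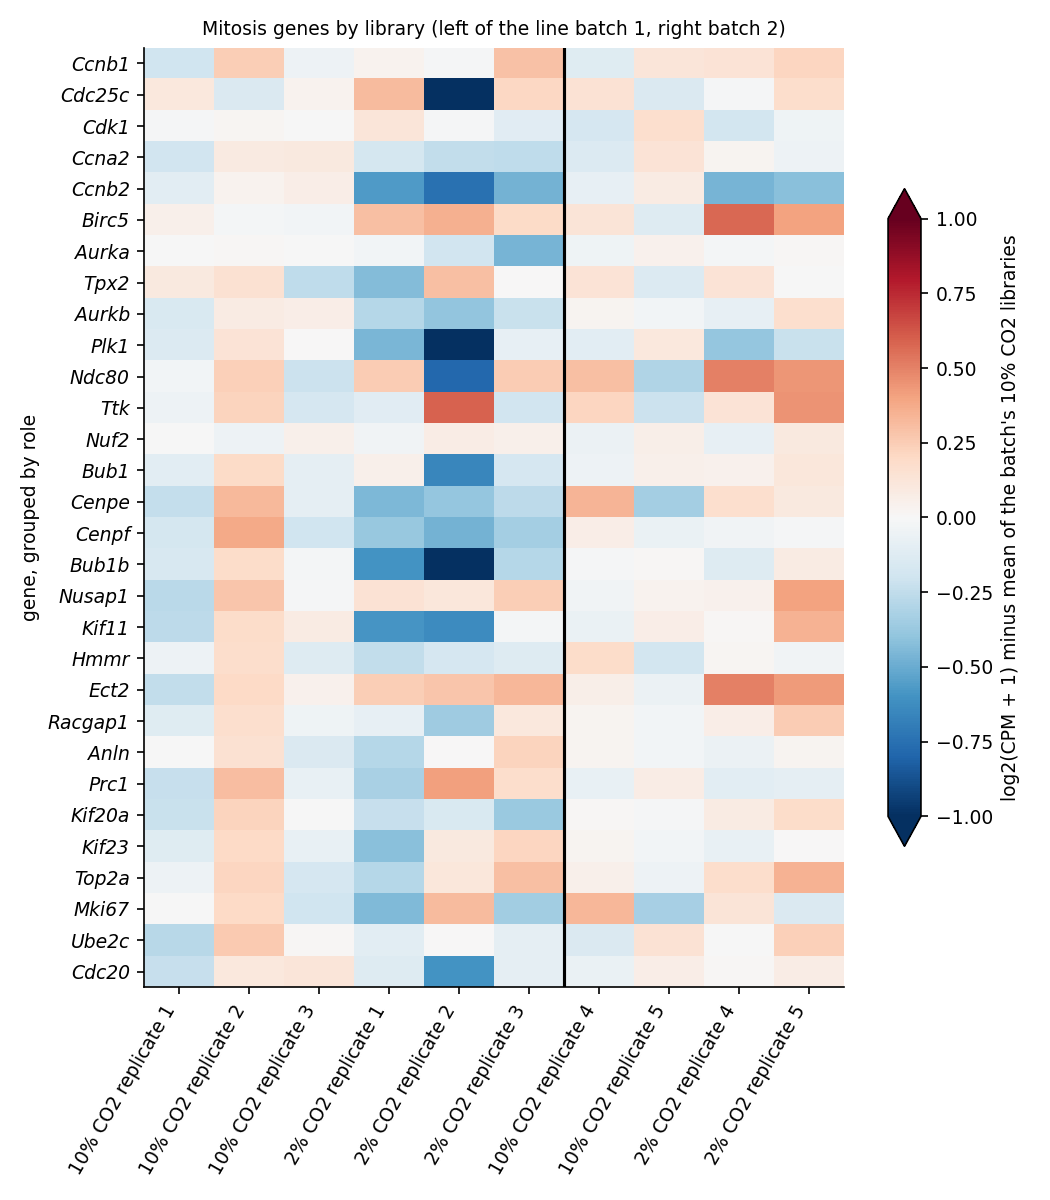
Each square is the log2(CPM + 1) of 1 of the 30 genes in 1 library, minus the mean of the 10% CO2 libraries of the same batch; red is higher, blue lower, and differences beyond 1 are clipped. Ccnb2, Plk1 and Cenpf are below that mean in all 5 libraries at 2% CO2, some only slightly. Birc5, Ect2 and Nusap1 are above it in all 5, some only slightly. The clipped square of Cdc25c in 2% CO2 replicate 2 stands for 0 counts.

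The CO2 difference was also taken within each batch. In batch 1 alone 1 gene passed, Ccnb2 (-0.59 ± 0.15 on the log2 scale, SE; edgeR adjusted p = 0.0325), where 6.22% of all genes tested were called. In batch 2 alone 0 passed by edgeR (4 with an unadjusted p under 0.05), where 1.83% of all genes were called, and Ccnb2 was at -0.52 ± 0.13 on the log2 scale (SE; edgeR adjusted p = 0.0770). Plk1 was at -0.44 and -0.37, Birc5 at 0.24 and 0.37, and Ect2 at 0.24 and 0.35 in batches 1 and 2. In all, 22 of the 30 genes had the same sign in both batches, 17 negative and 5 positive, and 8 had opposite signs. The share of all genes with the same sign was not taken. The signs also depend on the scale, since in batch 2 18 genes were negative with TMM factors and 12 with library totals. Batch 1 had a median of -0.15 and batch 2 one of -0.07, which became 0.03 when scaled by library totals. The call of Ccnb2 in batch 1 alone was lost without each library of that batch but 10% CO2 replicate 1. A CO2 by batch interaction was found by edgeR for 0 of the 30 genes and 0% of all genes tested, with 1 gene at an unadjusted p under 0.05.

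More mitosis genes were called between the batches than between the CO2 levels. With CO2 in the model, 11 of the 30 (36.7%) were called between batches by edgeR, 7 higher and 4 lower in batch 2, where 36% of all genes tested were called, 17.4% higher and 18.5% lower. The share was that of the background. Cenpe and Cenpf had the greatest differences, with log2 fold changes (batch 2 minus batch 1) of 0.84 ± 0.14 and 0.79 ± 0.13 (SE; edgeR adjusted p = 0.000127 and 0.000104). Cenpf was at 44.8 to 81.6 CPM in the 6 libraries of batch 1 and at 95.3 to 104 CPM in the 4 of batch 2, with no overlap. Kif11, Kif23, Cdc20, Racgap1 and Top2a were also higher in batch 2, and Nuf2, Plk1, Nusap1 and Cdk1 were lower. Of the genes called between batches only Plk1 was also called between the CO2 levels.

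**Figure D5:**
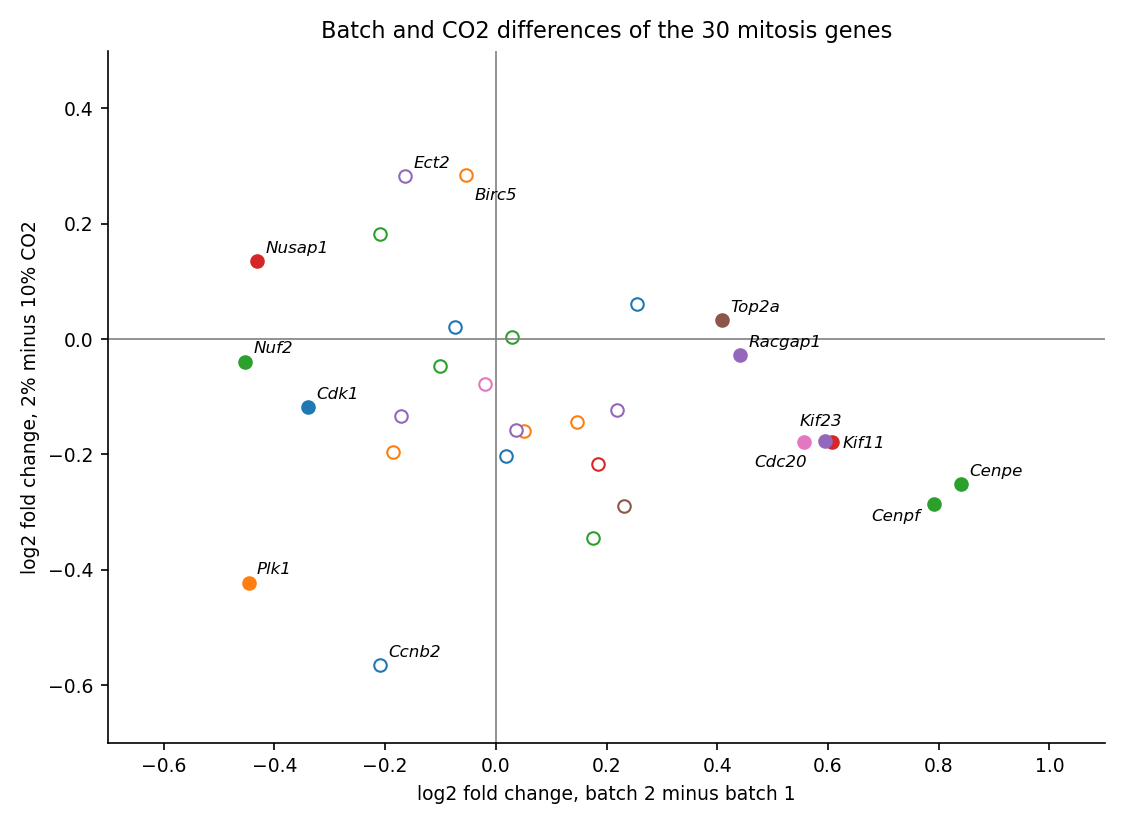
Log2 fold change between the batches (x axis) and between the CO2 levels (y axis) for the 30 genes, filled where the batch difference passed the test, with the colours of roles as in the plot of CO2 differences. The batch differences run from -0.45 to 0.84 and the CO2 differences from -0.57 to 0.28.

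The rest of the mitotic machinery was taken as 141 further genes, all of them tested. At 2% CO2 7 rose, 3 fell and 131 did not pass (7.09% called, against 12% of all genes), with a median log2 fold change of 0.02. The count was 5 without 10% CO2 replicate 3, 10% CO2 replicate 4 or 2% CO2 replicate 4, and 6 without 2% CO2 replicate 3. Of the 38 centromere and kinetochore genes 4 rose and 0 fell by edgeR, with 2 lower at an unadjusted p under 0.05. That is 10.53% called, against 12% of all genes tested (5.3% higher and 6.73% lower). Ska2 (of the Ska complex, which couples kinetochores to microtubules) had 82.2 to 110 CPM with the routine CO2 and 136 to 159 CPM with less, with no overlap, and rose by 0.49 on the log2 scale (edgeR adjusted p = 0.00516). Pmf1 and Nsl1, subunits of the Mis12 complex, rose by 0.47 and 0.59, also without overlap. Nsl1 did not pass once replicate 4 at 10% CO2 was removed (edgeR adjusted p = 0.149). Oip5, of the Mis18 complex that loads the centromeric histone, rose by 0.57, but did not pass once replicate 3 or 4 at 10% CO2, or replicate 1 or 3 at 2% CO2, was removed (edgeR adjusted p between 0.0509 and 0.0848).

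Of the 17 genes of the anaphase-promoting complex and its cofactors 2 rose and 1 fell (17.65% called, against 12% of all genes tested). Anapc5 fell by 0.40 on the log2 scale, which did not hold once replicate 4 at 2% CO2 was removed (edgeR adjusted p = 0.0535). Nor did it hold without the 3 shallowest libraries (edgeR adjusted p = 0.0601) or with no batch term (0.1456). Anapc16 and Anapc15 rose by 0.45 and 0.41 and, like Lin9 below, are named after their values were seen. The call of Anapc16 did not hold when replicate 4 at 10% CO2, or 1 or 4 at 2% CO2, was removed, and that of Anapc15 in 7 of the 10 fits lacking a library, the exceptions being those that lacked replicate 4 at 10% CO2 and replicates 2 and 5 at 2% CO2. The condensin subunit gene Ncapd2 fell by 0.39, lost without 10% CO2 replicate 3 (0.0507) or 2% CO2 replicate 1 (0.0612). That call was also lost without the 3 shallowest libraries (edgeR adjusted p = 0.1175), with library totals (0.0673) and with no batch term (0.7447). Plk4, the kinase of centriole duplication, fell by 0.42, which did not hold when replicate 3 or 4 at 10% CO2, or 1, 3 or 4 at 2% CO2, was removed (edgeR adjusted p between 0.0511 and 0.145). Nor did it hold without the 3 shallowest libraries (edgeR adjusted p = 0.0870), with library totals (0.0914) or with no batch term (0.2634).

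Of 21 transcriptional regulators of the programme only Lin9, a subunit of MuvB, passed (4.76% called, against 12% of all genes tested). Its log2 fold change was 0.58. In the 10 fits that left out a library it passed in 2, those lacking replicate 2 or replicate 5 at 10% CO2. Foxm1 and Mybl2 (B-Myb), chosen here as the known activators, had log2 fold changes of 0.00 and 0.04.

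For comparison, of 41 DNA replication genes 2 rose, 0 fell and 39 did not pass by edgeR, with 1 lower at an unadjusted p under 0.05. This is 4.88% called, against 12% of all genes tested, and the median log2 fold change was 0.12. With scaling to the library total 4 were called and with DESeq2 5, where the shares of all genes called are not given. Orc6, a subunit of the origin recognition complex, was at 179, 175, 192, 173 and 148 CPM at 10% CO2 and at 289.9, 285, 257, 327 and 275 CPM at 2% CO2. The levels did not overlap, and Orc6 rose by 0.65 ± 0.10 on the log2 scale (SE; edgeR adjusted p = 0.000475). Prim1, the catalytic subunit of primase, rose by 0.47, but did not pass once replicate 3 or 4 at 10% CO2, or replicate 1 or 4 at 2% CO2, was removed (edgeR adjusted p between 0.0569 and 0.137). The count of 2 became 1 when replicate 3 or 4 at 10% CO2, or replicate 4 at 2% CO2, was removed.

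Among 13 G1 cyclins, their kinases and Cdk inhibitors 1 rose, 2 fell and 10 did not pass, with a median log2 fold change of -0.02. The share called was 23.08%, against 12% of all genes tested. Cdkn1a (p21, an inhibitor of cyclin-dependent kinases and a known target of p53) was at 53.7, 36.4, 51.2, 39.5 and 41.5 CPM at 10% CO2 and at 120.2, 101, 101, 98.3 and 77.1 CPM at 2% CO2. The levels did not overlap, and its rise of 1.13 ± 0.14 on the log2 scale (SE; edgeR adjusted p = 5.06e-05) was larger than that of any of the 30 mitosis genes. The D-type cyclins Ccnd2 and Ccnd3, which act with Cdk4 and Cdk6 in G1, fell by 0.64 and 0.44 on the log2 scale, and Ccnd3 did not pass once replicate 4 at 10% CO2 was removed (edgeR adjusted p = 0.0527). Ccnd1 had a log2 fold change of 0.04.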

How the data were processed

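The authors deposited a table of estimated counts for each gene, without normalization. Of its nonzero values 73.5% are whole to within 1e-06; the origin of the fractions is not stated. The submitters' processing notes name build GRCm39 and the tools MultiQC 1.32, Subread 2.1.1 (featureCounts), SAMtools 1.22.1 and STAR 2.7.11. A deposited table of CPM by the authors equals counts over the library total (greatest difference 4.78e-05) and served only for that check. Per the labels' protocols, mRNA was reverse transcribed, tagmented and amplified; strand and molecular identifiers are not given.

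The 92 spike-in entries, all at 0, were left out. Counts were rounded and fitted over all genes with edgeR 4.0.16 in R 4.3.3: genes kept by filterByExpr at a count of 10 and a total of 15, TMM factors, and two-sided quasi-likelihood F tests (robust) on batch plus CO2, adjusted by Benjamini-Hochberg. SEs and 95% intervals come from the F statistic. Further fits used each batch alone, the CO2 by batch interaction and the batch term. Alternatives, 19 for the CO2 difference, were DESeq2 1.42.0, limma 3.58.1 (voom), scaling by library totals or by RLE, 2 filters, no batch term, a replicate block, and libraries left out. The fit was also run on simulated data without a batch difference, which cannot check how the model handles batches. No pair of libraries within a level and batch agreed within sampling noise (chi-square tests).

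The members, the lists and the tests were chosen with earlier results of these data known. Values in every library are given for genes that passed, the gene with the smallest adjusted p in each role, and Ccnb1, Cdk1, Plk1, Top2a and Mki67; from other lists, up to 4 genes per direction. Birc5, Foxm1, Mybl2, Ccnd1 and the Ccnb2 to Ccnb1 ratio were added after values were seen. The floor of 3 counts and its CPM cover counting error only.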

Additional observations from a re-analysis of the deposited data

Results flagged for a closer look

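In the 62 sets of 5 libraries examined (30 genes and their sum at 2 CO2 levels), 4 held 1 library that stood apart. Its distance from the other 4 was more than 0.71 of the whole range. Chance gives about 1 in 20 for 5 like values, and 4 of 62 is near that share. The libraries differ in batch and depth, so that rate holds only roughly here. Cdc25c had 0 counts in 2% CO2 replicate 2, against 16.1 to 21.4 CPM in the others, and Ndc80 was there at 16.8 CPM, from 3 counts, against 30.7 to 35.7 CPM. That library is the shallowest. Birc5 was at 164 CPM in 10% CO2 replicate 5, against 197 to 208 CPM; without that library its log2 fold change was 0.23 (edgeR adjusted p = 0.132). Bub1 was at 51.1 CPM in 10% CO2 replicate 2, against 39.4 to 42.6 CPM.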

How the results depend on the processing

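The median log2 fold change of the 30 genes stayed negative in all 19 alternatives, between -0.16 and -0.06. The call of Ccnb2 held in all 19 and that of Plk1 in 12. The count of mitosis genes called, 2, was 1 with no batch term and 1 without the 3 shallowest libraries, and 1 to 3 when 1 library was left out. For other mitosis genes, 10 called, it was 1 with no batch term and 5 to 11 with 1 library left out. For DNA replication genes, 2 called, it was 5 with DESeq2, 4 with library total scaling, 1 with no batch term and 1 to 3 with 1 library left out, and for G1 genes, 3 called, 2 to 3. In batch 1 alone the count of 1 was 2 with no filter and 0 to 1 with 1 library left out, and in batch 2 alone the count of 0 was 1 with no filter and stayed 0 with 1 library left out, which leaves a lone library assumed to vary like the others. The 11 calls between batches ranged from 8 to 13, and the interaction gave 0 throughout. The summed level at 2% over 10% CO2 was 0.990, or 0.929 after TMM, a setting added after seeing the data. The shares of all genes called under these alternatives are not given, so the changes in count have no background beside them. The causes were not tested.

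Libraries share replicate numbers across the CO2 levels. After removing level and batch means, same-numbered libraries correlated at 0.48, -0.32, 0.02, -0.01 and -0.62. With only level means removed, which leaves the batch difference in, the values were 0.47, 0.09, 0.21, 0.64 and 0.17. With so few libraries per level and batch, these correlations cannot decide whether same-numbered libraries were paired. With the replicate block 3 mitosis genes were called (Ect2 joined) and 2 in batch 2 alone, again without the shares of all genes beside them. Depth limits what the shallowest library can show, since 13 of the 30 genes had fewer than 10 counts there.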
